A study of Mus musculus with 6 samples.

Results

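The endoplasmic reticulum (ER) stress and secretory genes are 35 genes chosen for their function: sensors and transcription factors of the unfolded protein response, chaperones and disulfide isomerases of the ER lumen, components of ER-associated degradation, and the machinery that moves new proteins across the ER membrane. The rule uses function and no measured value, though the set was proposed with earlier results of these data known. Of the 35, 34 had a probe set annotated to that gene alone, and all 34 were among the 13279 genes tested. Sec61g, a small translocon subunit, was annotated only on a probe set shared with other genes and has no value here.

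The arrays measured messenger RNA of CD4+YFP+ T cells sorted from mouse lymph nodes. Mice of both genotypes carried FoxP3-GFP-hCre, which puts Cre under Foxp3, the gene of the regulatory T cell lineage factor, and ROSA26R-YFP, a reporter that marks cells in which Cre has acted. Het mice were Dicerwt/lox and KO mice Dicerlox/lox, so the controls also carried Cre and a lox allele of Dicer, the enzyme that produces mature microRNAs. Each genotype had 3 arrays, A, B and C, with no statement that they came from separate animals, so the tests reflect the variation among these arrays, part or all of which may be technical. The labels state no age.

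As background, secreted and membrane proteins enter the ER through the Sec61 translocon, lose their signal peptide and fold with the help of chaperones such as BiP, the product of Hspa5. When unfolded proteins accumulate, the sensors IRE1 (Ern1), PERK (Eif2ak3) and ATF6 respond: IRE1 splices the Xbp1 messenger into the form that encodes an active transcription factor, PERK phosphorylates a translation initiation factor, which favours ATF4, and ATF6 is cut to release a transcription factor. XBP1 and ATF6 switch on chaperone and degradation genes, and in lymphocytes XBP1 is best known for building the secretory capacity of plasma cells.

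Promoters of some of these genes share a sequence that was not used to choose them. The ER stress response element (ERSE), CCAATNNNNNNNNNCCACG, was searched on both strands in windows from 250 bases before to 50 after annotated starts (RefSeq, GRCm38.p6), which were matched for 29 of the 35 genes. It was found in 9 of these 29 (31.0%), against 37 of all 27025 genes with such windows (0.137%). The element was first defined in promoters of ER chaperone genes of this set, so its frequency here is a description. The 10 matches are shown because most lie in folding genes. Each is written in the element's own direction, with the fixed bases in capitals and the spacer in lower case.
Hspa5 (chr2:34772025-34772043): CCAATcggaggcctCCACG
Hsp90b1 (chr10:86705638-86705656): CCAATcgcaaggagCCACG
Hsp90b1 (chr10:86705533-86705551): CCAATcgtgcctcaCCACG
Creld2 (chr15:88819520-88819538): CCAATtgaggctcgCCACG
Calr (chr8:84847075-84847093): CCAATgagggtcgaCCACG
Pdia6 (chr12:17266491-17266509): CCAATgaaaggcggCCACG
Canx (chr11:50325800-50325818): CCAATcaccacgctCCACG
Dnajc3 (chr14:118937827-118937845): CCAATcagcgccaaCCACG
Syvn1 (chr19:6046532-6046550): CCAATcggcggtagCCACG
Derl3 (chr10:75893242-75893260): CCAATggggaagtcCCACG

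The related element ERSE-II, ATTGGNCCACG, was found in Dnajb11 and Herpud1 (2 of 29, against 12 of 27025 genes, 0.0444%). TGATGNAA, the core of the amino acid response element bound by ATF4, was found in Herpud1 and Trib3 (2 of 29, 6.9%, against 4.51% of all genes with windows). TGACGTGG, the core of the unfolded protein response element, was in 0 of the 29 and in 0.714% of all genes with windows. Matches to different motifs did not overlap in any of these windows. The 250 bases before the start are printed for Hspa5, Hsp90b1 and Creld2. On the brightest probe sets of these 3 folding genes all KO arrays lay above the Het arrays. The ERSE is in capitals (as its reverse complement for Creld2 and for the second match of Hsp90b1).
Hspa5 (chr2:34771840-34772089, plus strand): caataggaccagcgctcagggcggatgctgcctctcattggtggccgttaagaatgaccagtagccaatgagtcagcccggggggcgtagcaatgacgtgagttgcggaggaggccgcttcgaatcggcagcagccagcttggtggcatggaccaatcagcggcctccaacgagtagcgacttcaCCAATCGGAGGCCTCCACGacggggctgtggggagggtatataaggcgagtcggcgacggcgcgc
Hsp90b1 (chr10:86705445-86705694, minus strand): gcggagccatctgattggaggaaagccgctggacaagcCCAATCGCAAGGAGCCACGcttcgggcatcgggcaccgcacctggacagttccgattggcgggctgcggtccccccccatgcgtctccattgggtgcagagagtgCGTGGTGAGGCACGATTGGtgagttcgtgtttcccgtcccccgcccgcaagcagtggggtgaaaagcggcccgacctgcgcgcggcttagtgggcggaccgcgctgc
Creld2 (chr15:88819396-88819645, plus strand): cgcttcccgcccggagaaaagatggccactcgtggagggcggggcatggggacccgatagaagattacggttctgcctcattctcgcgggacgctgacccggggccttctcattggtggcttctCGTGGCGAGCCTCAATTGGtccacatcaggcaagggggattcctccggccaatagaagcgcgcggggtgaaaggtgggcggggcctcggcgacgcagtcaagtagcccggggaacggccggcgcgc

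Across the series, Cd4 read 4694 to 5809 on the Het arrays and 5161 to 6651 on the KO arrays, and Foxp3 8945 to 9960 and 5420 to 9417. The probe set that stands for Dicer1 gave a log2 difference of -0.03 and another gave -0.52 (limma, adjusted p = 0.891 and 0.145). Whether these probes fall inside the floxed segment is unknown, so they do not check the genotype. The B arrays of both genotypes stood apart for markers of other lymphocytes: the summed level of 6 B cell markers was 2530 on Het B and 5080 on KO B, against 1080 to 2097 on the other 4 arrays. That of the 2 CD8 genes was 2257 and 4415, against 636 to 909. Some markers of other cells were higher on the KO arrays. Cd22, of B cells, had every KO array above every Het array (log2 1.37, limma, adjusted p = 0.173), as did Cd68, of macrophages (1.91, adjusted p = 0.113). The other tested B cell markers overlapped, with log2 1.15 for Ms4a1, 0.42 for Cd79b, 0.23 for Cd79a and 0.01 for Blk. Cd22 supplied 2980 of the 5080 summed on KO B. The summed level of 7 myeloid markers was 317 to 628 in Het and 538 to 2051 in KO, with 4 of 4 tested positive (median log2 1.06) and 0 past the test (1 higher at an unadjusted p under 0.05). Among all genes tested 43.4% were positive and 10.7% higher at that unadjusted p. Cd14 and Itgam, defining myeloid markers, read at most 5.91 on any array. Genes that passed the test are also given without both B arrays.

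In KO cells 3 of the 34 genes rose, Xbp1, Ern1 and Sel1l, and 0 fell (limma, adjusted p under 0.05 over 29507 probe sets; 0 were lower at an unadjusted p under 0.05 as well). Among all 13279 genes tested, 1.37% passed as higher and 0.956% as lower. At an unadjusted p under 0.05, 12 of the 34 were higher, against 10.7% of all genes, and 0 were lower, against 11.6%. Every KO array lay above every Het array for 12 of the 34, against 13.2% of all genes, and below for 0, against 16.8%. The log2 difference was positive for 29 of the 34 (85.3%) and for 43.4% of all genes, and its median was 0.26 against -0.03. After quantile normalization 25 of the 34 were positive, with Canx, Edem1, Sec61a1 and Sec11c turning negative. The calls did not survive smaller sets of arrays: 1 of the 3, Xbp1, passed without KO A, and 0 passed without any other single array. Without both B arrays 0 passed as well, and 10 of the 34 were higher at an unadjusted p under 0.05. With the letters A, B and C as a block 0 of the 3 passed (limma, adjusted p 0.0956 to 0.12), although the letters were not taken to pair the arrays.

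**Figure D1:**
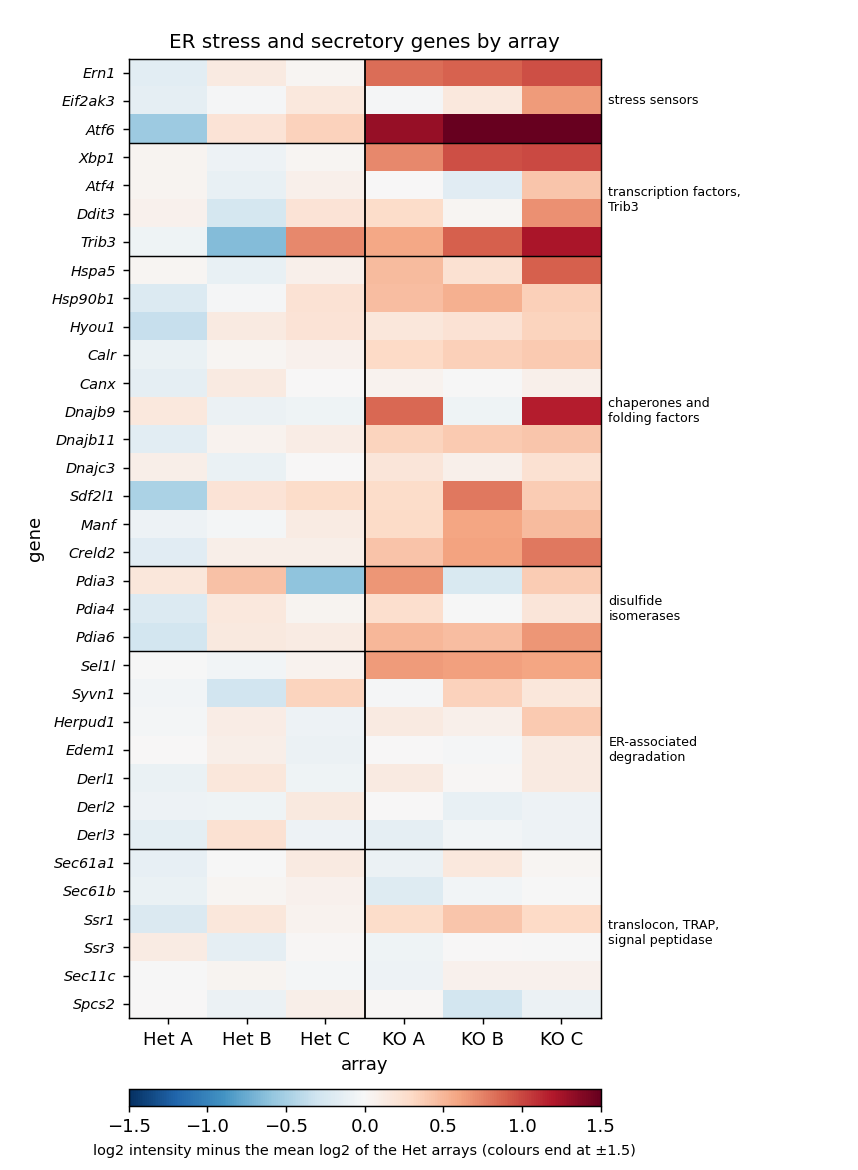
Heat map of 34 genes (rows, grouped by role) on the 6 arrays (columns); colour is the log2 intensity minus the mean log2 of the Het arrays. The KO columns are mostly red among sensors, transcription factors and chaperones, and the translocon rows are pale apart from Ssr1. KO C holds the highest value of 16 of the 34 genes, a count not made over all genes.

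**Figure D2:**
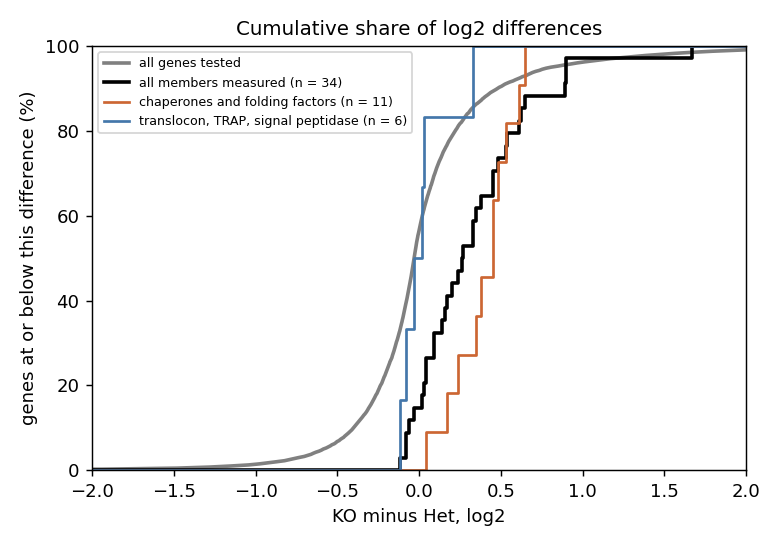
Cumulative share of genes (y axis, %) at or below a log2 difference KO minus Het (x axis), for all 13279 genes tested, the 34 members, the 11 chaperones and folding factors and the 6 translocon, TRAP and signal peptidase genes. The chaperone line starts above 0 (lowest 0.04), while the translocation line runs from -0.12 to 0.33.

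Among the 3 sensors Ern1 rose, Atf6 was higher on every KO array without passing on its brightest probe set, and Eif2ak3 did not pass. Ern1, which encodes the kinase and endonuclease IRE1, read 289 (Het A), 355 (Het B) and 332 (Het C), against 580 (KO A), 598 (KO B) and 635 (KO C). The KO arrays lay close together and well above the Het arrays, a 1.86-fold difference (log2 0.90 ± 0.10, SE; limma, adjusted p = 0.0269). The other tested probe sets of Ern1 did not follow: 1 read 334 to 355 in Het and 308 to 357 in KO (log2 -0.07, 95% interval -0.28 to 0.15), and a dimmer one gave 0.45 (adjusted p = 0.537). On the Het arrays the probe set at -0.07 had the higher mean, 348 against 325. The choice of the brightest probe set thus rested on the KO arrays. With the mean over its tested probe sets Ern1 did not pass (log2 0.43, adjusted p = 0.144). Without both B arrays its difference was 0.97 (adjusted p = 0.146), and without 1 array it ranged from 0.82 to 0.96 (adjusted p 0.0679 to 0.103).

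Atf6, the membrane-bound factor that is released by cleavage in the Golgi, had the largest difference of the 34. It read 67.2, 114 and 125 across Het A to C and 244, 442 and 284 across KO A to C, a 3.18-fold difference (log2 1.67 ± 0.32, SE) that missed the threshold (limma, adjusted p = 0.0706). All 3 Atf6 probe sets had every KO array above every Het array. The dimmest, at 16.9 to 18.3 in Het and 27.8 to 34.1 in KO, passed on its own (log2 0.79, adjusted p = 0.0347), and the mean over the 3 passed too (log2 1.09, adjusted p = 0.0293). Without both B arrays neither did, at 0.67 (adjusted p = 0.149) and 0.96 (adjusted p = 0.109). Among all 29507 probe sets, 1.11% passed as higher, and among the 80 tested probe sets of the 34 genes 6 did: 3 of Xbp1 and 1 each of Ern1, Atf6 and Sel1l. Eif2ak3, the gene of the kinase PERK, read 969, 1056 and 1193 on the Het arrays, against 1051, 1192 and 1664 on the KO arrays, with overlapping groups (log2 0.26, 95% interval -0.22 to 0.74), and its difference was 0.07 without KO C.

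Xbp1 was the one transcription factor of the response that rose. It read 7859 (Het A), 7251 (Het B) and 7824 (Het C), against 12588 (KO A), 14990 (KO B) and 15127 (KO C). The 3 Het arrays lay within a narrow range and the lowest KO array stood far above them (1.86-fold, log2 0.89 ± 0.10, SE; limma, adjusted p = 0.0270). Of its 4 probe sets 3 passed, with log2 differences of 0.89, 0.97 and 1.08, and the dimmest, at 106 to 139 in Het and 118 to 163 in KO, gave 0.26 (adjusted p = 0.46). The difference was 0.82 without both B arrays (adjusted p = 0.155), and between 0.85 and 0.98 without any 1 array, where adjusted p lay between 0.0426 (without KO A) and 0.105 (without Het A). The probe sets do not tell the spliced from the unspliced messenger.

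**Figure D3:**
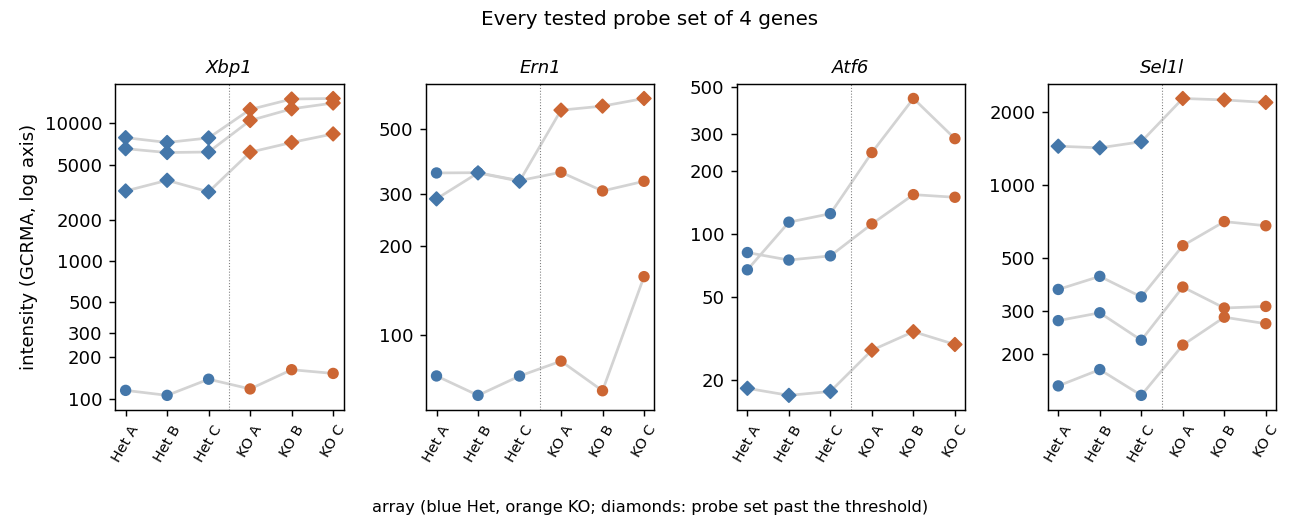
Intensity (y axis, log scale) of every tested probe set of Xbp1, Ern1, Atf6 and Sel1l on the 6 arrays (x axis; Het blue, KO orange); grey lines only join the points of 1 probe set, and diamonds mark probe sets past the threshold. The brighter 3 Xbp1 probe sets, all 3 of Atf6 and all 4 of Sel1l lie higher on the KO arrays, while 2 Ern1 probe sets have overlapping groups.

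The genes of the PERK branch did not pass. Atf4, the transcription factor whose translation rises when PERK is active, read 12707, 11454 and 13093 across Het A to C and 12510, 11044 and 16544 across KO A to C (log2 0.09, 95% interval -0.32 to 0.50). Its groups overlapped, and the difference was -0.08 without KO C. A second Atf4 probe set, at 2205 to 2355 in Het, read 2396, 2467 and 4314 in KO, with no overlap (log2 0.36; limma, adjusted p = 0.49). Ddit3, the gene of the stress factor CHOP, read 1026, 818 and 1123 on the Het arrays, against 1194, 1001 and 1571 on the KO arrays (log2 0.33; limma, adjusted p = 0.454). Trib3, a pseudokinase gene induced by ATF4 and CHOP, read 248, 166 and 431 across Het A to C and 389, 486 and 608 across KO A to C, a 1.87-fold difference with a wide interval (log2 0.90, -0.03 to 1.83; adjusted p = 0.276). The second probe set of Trib3 had no overlap, with 230.4 on Het C next to 230.8 on KO A (log2 1.18, adjusted p = 0.217). For Atf4, Ddit3 and Trib3 the highest array was KO C. Ddit3 gave 0.16 without KO C and Trib3 0.57 without Het B.

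None of the 11 chaperones, co-chaperones and folding factors passed the test, but all 11 had a positive difference (median log2 0.45, range 0.04 to 0.65; Canx turned to -0.03 after quantile normalization). Before adjustment (p under 0.05) 6 were higher and 0 lower (limma), and the same 6 had every KO array above every Het array. Among all genes tested 43.4% were positive, and 10.7% were higher and 11.6% lower before adjustment. Every KO array lay above every Het array for 13.2% of them. Hspa5, the gene of the central ER chaperone BiP, read 32001, 29049 and 33255 on the Het arrays, against 43589, 36936 and 58369 on the KO arrays. All 3 KO arrays exceeded the Het arrays, KO C most (log2 0.53 ± 0.18, SE; adjusted p = 0.20), and the difference was 0.35 without KO C. Hsp90b1, which encodes the chaperone GRP94, read 17689, 20063 and 23658 across Het A to C and 27969, 29325 and 26145 across KO A to C (log2 0.45; adjusted p = 0.145).

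Creld2, the gene of a secreted ER stress-inducible factor, was nearest to the threshold among the 11 when each gene is taken by its brightest probe set. It read 1742, 2086 and 2092 on the Het arrays, against 2650, 2982 and 3408 on the KO arrays, a 1.52-fold difference with no overlap (log2 0.61 ± 0.13, SE; limma, adjusted p = 0.0871). Manf, which encodes a small secreted ER protein with trophic activity, read 9315, 9656 and 10712 across Het A to C and 12111, 14820 and 13684 across KO A to C (log2 0.45; adjusted p = 0.108). Calr, the gene of the lectin chaperone calreticulin, read 16792, 18376 and 18915 on the Het arrays, against 22112, 23084 and 23561 on the KO arrays, and its 3 probe sets gave 0.28 to 0.35. Its membrane-bound relative Canx, calnexin, read 18242, 22102 and 20118 against 20867, 20017 and 21233 on its brightest probe set, with overlapping groups (log2 0.04, 95% interval -0.20 to 0.28). Other Canx probe sets gave 0.24, with overlap, and 0.44, with no overlap (limma, adjusted p = 0.297 and 0.225). Dnajb11, an ER co-chaperone of BiP, read 992, 1150 and 1196 across Het A to C and 1395, 1455 and 1484 across KO A to C (log2 0.38; adjusted p = 0.121).

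Dnajb9, the BiP co-chaperone ERdj4 and a known XBP1 target, varied most among the KO arrays. It read 3228, 2714 and 2766 on the Het arrays, against 5252, 2750 and 6547 on the KO arrays, so KO A and KO C were high and KO B lay among the Het arrays (log2 0.65, 95% interval -0.16 to 1.47). Its difference was 1.02 without KO B (limma, adjusted p = 0.0759) and 0.39 without KO C (adjusted p = 0.626). Sdf2l1, part of a BiP-containing chaperone complex, read 715, 1134 and 1194 across Het A to C and 1189, 1716 and 1286 across KO A to C (log2 0.48; adjusted p = 0.369), and 0.25 without Het A. Hyou1, the nucleotide exchange factor GRP170, gave log2 0.24 (95% interval -0.17 to 0.65), and 0.07 without Het A. Dnajc3, the BiP co-chaperone p58IPK, gave 0.17 on its brightest probe set and 0.17 to 0.86 over all 5. One of these, at 1174 to 1598 in Het and 2222 to 2631 in KO, had no overlap (log2 0.86, adjusted p = 0.056).

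The protein disulfide isomerases, which form and rearrange disulfide bonds, gave 1 gene with separated groups. Pdia6 read 2712, 3639 and 3548 on the Het arrays, against 4640, 4493 and 5157 on the KO arrays (log2 0.54 ± 0.14, SE; limma, adjusted p = 0.125). Pdia3, the partner of calnexin and calreticulin in glycoprotein folding, read 12704, 15358 and 7447 across Het A to C and 17902, 9647 and 14788 across KO A to C. Its spread within each genotype exceeded the difference between them (log2 0.27, 95% interval -0.59 to 1.14), which was -0.03 without Het C. Pdia4 gave log2 0.14 (95% interval -0.18 to 0.45). Thus 0 of the 3 passed and 1 was higher at an unadjusted p under 0.05 (limma), against 10.7% of all genes.

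In ER-associated degradation, the route by which misfolded proteins return to the cytosol for the proteasome, Sel1l rose and the other 6 genes did not pass. Sel1l, the adaptor of the ubiquitin ligase complex in the ER membrane, read 1449, 1427 and 1512 on the Het arrays, against 2285, 2254 and 2200 on the KO arrays. The arrays of each genotype lay within a narrow band and the bands were far apart (1.54-fold, log2 0.62 ± 0.07, SE; limma, adjusted p = 0.0263). All 4 tested probe sets of Sel1l had every KO array above every Het array, at log2 0.33 to 0.78. The difference was 0.60 without both B arrays (adjusted p = 0.153) and 0.60 to 0.64 without any 1 array (adjusted p 0.0737 to 0.105).

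Syvn1, the ubiquitin ligase HRD1 that works with SEL1L, had overlapping groups: 3054, 2567 and 3927 across Het A to C and 3094, 3968 and 3526 across KO A to C (log2 0.16, 95% interval -0.29 to 0.62). Herpud1, an ER stress-inducible component of the same complex, read 2124, 2349 and 2052 on the Het arrays, against 2374, 2302 and 2847 on the KO arrays (log2 0.20, -0.08 to 0.49). Edem1, a lectin that hands misfolded glycoproteins to degradation, gave 0.04 on its brighter probe set. Its second probe set read 2332, 2704 and 2107 across Het A to C and 3062, 3739 and 3909 across KO A to C, with no overlap (log2 0.58; limma, adjusted p = 0.109). The derlins, membrane proteins of the exit channel, had overlapping groups, with log2 0.09 for Derl1 (95% interval -0.16 to 0.35), -0.06 for Derl2 (-0.30 to 0.18) and -0.08 for Derl3 (-0.38 to 0.21).

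The 6 measured genes of the translocon, the TRAP complex that assists it and signal peptidase had a median log2 difference of -0.01, and 0 passed (limma), with 1 higher and 0 lower before adjustment (unadjusted p under 0.05). Among all genes tested 10.7% were higher and 11.6% lower before adjustment. Ssr1, the alpha subunit of TRAP, was the exception in size: 2412, 3160 and 2921 on the Het arrays, against 3414, 3755 and 3455 on the KO arrays, with no overlap (log2 0.33, adjusted p = 0.23). Over its 4 probe sets Ssr1 gave -0.03 to 0.50. The other TRAP gene, Ssr3, gave -0.03 (95% interval -0.26 to 0.20). Sec61a1, which encodes the pore of the translocon, gave 0.03 (-0.24 to 0.30), and Sec61b, its beta subunit, -0.08 (-0.31 to 0.15). The signal peptidase genes Sec11c and Spcs2 gave 0.02 (-0.18 to 0.21) and -0.12 (-0.38 to 0.15). The 6 Sec11c arrays read 17018 to 18813, with the lowest and the highest both among the KO arrays.

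**Figure D4:**
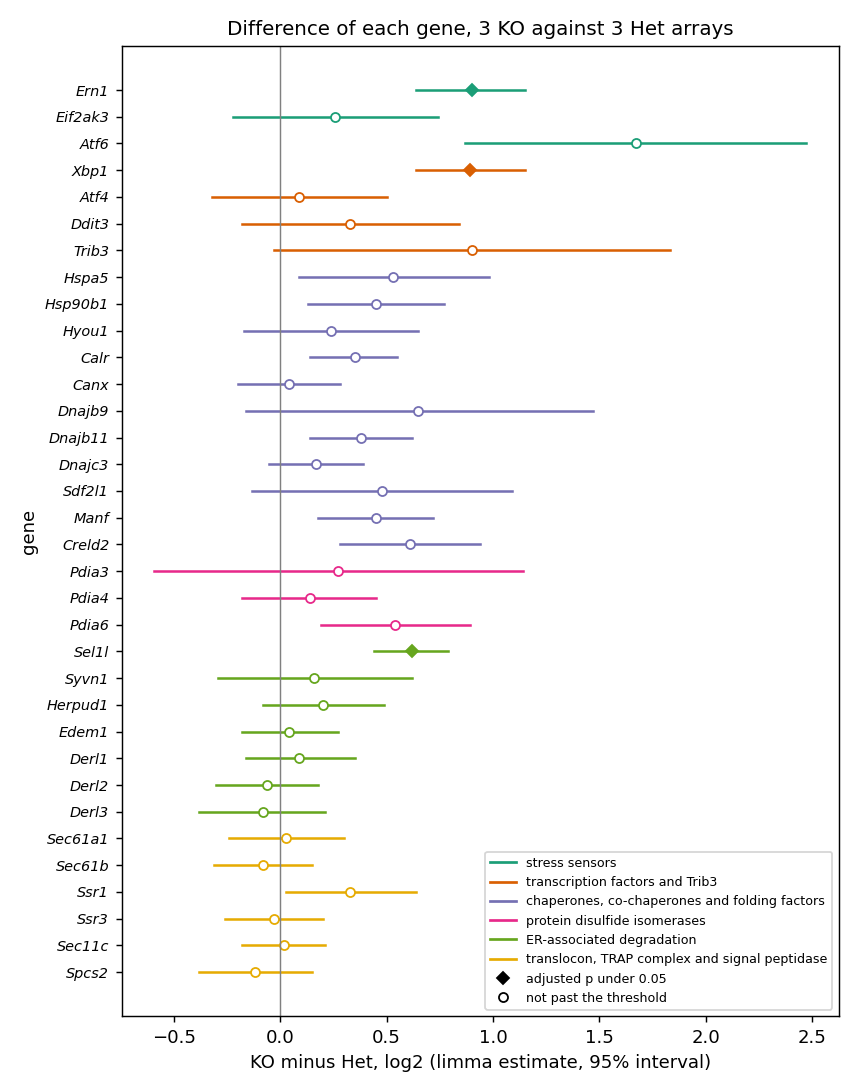
Log2 difference KO minus Het (x axis) of each of the 34 genes (y axis, coloured by role) with its 95% interval from limma; filled diamonds passed the threshold. Ern1, Xbp1 and Sel1l are the 3 diamonds, Atf6 lies farthest right with a wide interval, and all translocation genes but Ssr1 have intervals that span 0.

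The 9 genes with an ERSE had differences of -0.08 to 0.61 (median 0.35) and the 19 measured genes with a window but no match had -0.12 to 0.90 (median 0.27). Of the former 0 passed and of the latter 3 did (limma), since none of Xbp1, Ern1 and Sel1l held a match in its window. By the brightest probe sets, the ERSE genes Hspa5, Hsp90b1, Creld2, Calr and Pdia6 had every KO array above every Het array. Canx, Dnajc3, Syvn1 and Derl3 overlapped. Other probe sets differed: a dimmer one overlapped for Hspa5 (log2 0.08), Hsp90b1 (0.95) and Pdia6 (-0.10). One of Canx (0.44) and one of Dnajc3 (0.86) did not overlap. Outside the set 28 genes held an ERSE; 6 of them were tested, 3 were positive and 0 passed, with a median of 0.13. These groups of genes were not tested against each other.

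Of the 115 other genes of the pathway listed for comparison, 109 were tested, 0 rose and 1 fell (limma). Before adjustment (unadjusted p under 0.05) 21 were higher and 3 lower, and the median log2 was 0.07. Among all 13279 genes tested 1.37% passed as higher and 0.956% as lower, with 10.7% and 11.6% before adjustment. The 15 further folding and redox genes had a median of 0.23, with Fkbp2, a prolyl isomerase gene, at 0.71 (adjusted p = 0.102) and the disulfide isomerase gene Txndc5 at 0.67 (adjusted p = 0.116). For 17 further targeting and translocation genes the median was -0.01, close to that of the 6 translocation genes above. Srpr, the signal recognition particle receptor, had the smallest p there at log2 0.62, from 2480, 2800 and 2986 to 3807, 4782 and 4127 (adjusted p = 0.0741), followed by Tram2 at 0.39 (adjusted p = 0.302). Among 10 genes of N-glycosylation the catalytic subunit gene Stt3b gave 0.90 (adjusted p = 0.12) and Ddost 0.38 (adjusted p = 0.125).

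Transport from the ER to the Golgi had a median of 0.02 over 21 tested genes. The coat genes Sec23a (log2 0.67; limma, adjusted p = 0.0688) and Sec24a (0.65; adjusted p = 0.0932) had every KO array above every Het array. Among 15 other degradation genes the ubiquitin-conjugating enzyme gene Ube2j1 gave 0.30 (adjusted p = 0.105) and the ligase gene Rnf5 -0.42 (adjusted p = 0.0803). Of 13 other regulators of the response 0 passed. At an unadjusted p under 0.05 (limma) 3 were higher, against 10.7% of all genes. Wfs1 gave 0.58 (adjusted p = 0.106) and Bcl2l11, the gene of the death-promoting protein BIM, 1.12 (adjusted p = 0.108).

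The amino acid response and ATF4 target genes had a median of -0.08 over 18 tested genes. Among all genes 0.956% passed as lower, and of the 109 tested in all these lists 1 did. That gene was Eif4ebp1, an inhibitor of translation initiation and a known ATF4 target. It read 814, 779 and 939 across Het A to C and 447, 530 and 479 across KO A to C, with every KO array below every Het array (log2 -0.80 ± 0.11, SE; limma, adjusted p = 0.0417). It did not pass with median centring (-0.79, adjusted p = 0.0527), as the mean of its probe sets (-0.50, adjusted p = 0.0736), without both B arrays (-0.92, adjusted p = 0.148) or without any 1 array (adjusted p 0.0737 to 0.134). Ppp1r15a, the gene of the phosphatase subunit GADD34 that reverses PERK signalling, was singled out after its values were seen. It read 2155, 671 and 1843 on the Het arrays, against 4541, 693 and 13822 on the KO arrays, low on both B arrays and highest on KO C. KO C was also the array on which 16 of the 34 members were highest (KO B held the highest value of 8 and KO A of 3). Such counts were not made over all genes.

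Markers of plasma cells, the lymphocytes with the largest secretory apparatus, differed among themselves. Jchain, the joining chain of secreted antibodies, read 11.5, 163 and 13.6 across Het A to C and 389, 3197 and 2623 across KO A to C (log2 5.66, limma, adjusted p = 0.101). Its Het A and Het C values lay below the filter level of log2 4, so the size of this difference rests on values near the floor. Mzb1, an ER protein of antibody-secreting cells, read 64.5, 84.6 and 63.1 against 79.1, 379 and 357. Sdc1, the surface marker CD138, read 74.9 to 80.6 in Het and 72.2 to 72.6 in KO, and Tnfrsf17, the receptor BCMA, 4.75 to 5.18 on all arrays, near the floor of the scale. Prdm1, the transcription factor Blimp-1, read 869, 1549 and 1173 across Het A to C and 1943, 2331 and 1721 across KO A to C, with no overlap (log2 0.77, adjusted p = 0.172). The groups overlapped for Irf4 (log2 -0.33), Pou2af1 (0.57), Ighm (-0.55) and Slamf7 (0.10). The summed level of the 9 measured of 10 plasma cell markers was 9310 to 17206 in Het and 11139 to 16554 in KO. The largest term on every array was Ighm, at 5367 to 11522 in Het and 4742 to 6398 in KO. The sum thus follows Ighm more than Jchain and does not measure the number of plasma cells. Of the 8 tested markers 0 passed (limma, 3 higher at an unadjusted p under 0.05, against 10.7% of all genes). The part of Jchain-expressing cells in the differences of Xbp1, Sel1l and the chaperones was not tested.

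Markers of dividing cells were higher on the KO arrays as well. The summed level of 11 measured of 12 proliferation markers was 45348 to 92098 in Het and 110642 to 147178 in KO. Of the 11, 8 had every KO array above every Het array, against 13.2% of all genes. The groups overlapped for Mcm2 (log2 0.38), Mcm3 (0.36) and Rrm2 (1.02). In the test 0 passed, and 6 were higher at an unadjusted p under 0.05 (limma), against 10.7% of all genes. The 11 differences ran from 0.36 to 2.11 (median log2 1.42). Top2a, a topoisomerase of dividing cells, read 706, 4148 and 3160 on the Het arrays, against 6975, 11863 and 8258 on the KO arrays. Het A, lowest for these markers, was the lowest array for 17 of the 34 ER genes. This count was not made over all genes, so it cannot be called particular to the members. The part of cell division in these differences was not tested, and on sorted bulk samples more cells of a type and more RNA per cell cannot be told apart.

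**Figure D5:**
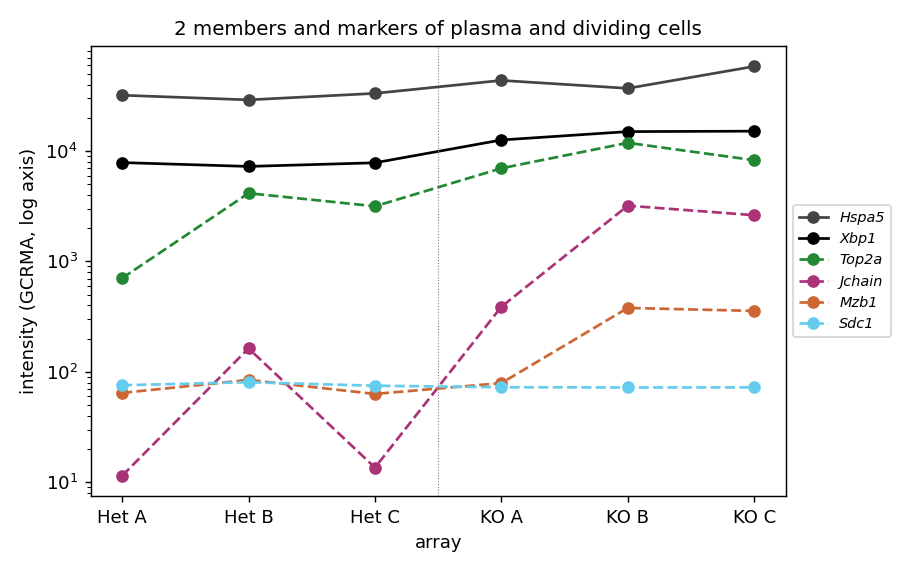
Intensity (y axis, log scale) on the 6 arrays (x axis) of Hspa5 and Xbp1 (solid) and of Top2a, Jchain, Mzb1 and Sdc1 (dashed); lines only join the points of 1 gene. Jchain runs from 11.5 on Het A to 3197 on KO B, Sdc1 stays between 72.2 and 80.6, and Xbp1 is between 12588 and 15127 on all KO arrays.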

How the data were processed

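The authors deposited GCRMA-normalized probe set intensities, per the labels. Their range, 1.23 to 170023, marks them as linear. GCRMA corrects background by a model of probe sequence, which can enlarge folds of dim genes. Values were turned to log2. Without 64 control probe sets and 1 that lacked values, 29507 reached log2 above 4 on 3 or more of 6 arrays and entered the test. GEO's platform annotation named genes, from probe sets with 1 symbol, and a gene's brightest probe set (highest mean over all arrays) stood for it. Genotypes were compared with limma 3.58.1 (R 4.3.3; lmFit and eBayes, two-sided, without covariates), and p-values were adjusted over every probe set tested (Benjamini-Hochberg, threshold 0.05). A difference is KO minus Het in log2. The fit was tested on simulated data with independent noise and differences larger than those of the members that passed, so this does not check their calls. Array medians were 58.1 to 61.5, and having 3 arrays per genotype limits the precision.

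The members and lists were chosen with earlier results of these data known. All members are named. From each other pathway list up to 4 genes past the threshold are named, or the 2 of smallest p where none passed; Ppp1r15a and the markers named were chosen with their values seen. Alternatives were the replicate letter as a block, no filter and a stricter one, quantile normalization, median centring, a robust fit with a trend on intensity, weights per array, averaging the probe sets of each gene, and fits without each array or both B arrays. Those for Eif4ebp1 and for further probe sets past the threshold, and Atf6 averaged without both B arrays, were chosen after seeing the data. Promoter windows (RefSeq, GRCm38.p6) were not matched for Atf6, Hyou1, Manf, Derl1, Sec61a1 and Sec11c. Plots used matplotlib 3.10.9.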

Additional observations from a re-analysis of the deposited data

How the results depend on the processing

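All probe sets past the threshold numbered 525 (limma), 957 with array weights, 0 with the replicate block (5365 before adjustment, p under 0.05), 0 after leaving out both B arrays (5274) and 0 to 176 without 1 array (0 without KO C, where 4227 had an unadjusted p under 0.05). The 3 members past the threshold became 0 with the replicate block (15 at an unadjusted p under 0.05), 0 with both B arrays left out (10) and 0 to 1 without 1 array, and numbered 3 under the other 7 alternatives, where averaging probe sets put Atf6 (1.09, adjusted p = 0.0293) in the place of Ern1 (0.43, adjusted p = 0.144). With the block Ern1, Xbp1 and Sel1l gave 0.90, 0.89 and 0.62 at adjusted p = 0.0956, 0.105 and 0.12, and Eif4ebp1 -0.80 at 0.126. Over all probe sets tested, deviations from the group means of same-letter arrays correlated at 0.283 for A, -0.171 for B and 0.0118 for C. The letters were thus not taken to pair the arrays, although both B arrays were high for the CD8 genes and for Klrd1. Klrd1 is an NK marker and read 566 on Het B and 1621 on KO B, against 69.2 to 91.9 elsewhere. The other measured NK markers, Ncr1, Klre1 and Klra8, read at most 18.7 on any array. The members' median difference stayed between 0.18 and 0.34 under all 15 alternatives, and 24 of the 34 members kept their sign under all of them. The value moved by over 1.5 times without 1 array for 23 of the 34 members. Signs turned for 10, with main differences of -0.08 to 0.27. With quantile normalization Canx gave -0.03, Edem1 -0.0013, Sec61a1 -0.01 and Sec11c -0.07, and with the mean of probe sets Ssr3 gave 0.03. Without both B arrays Syvn1 gave -0.07, Derl3 0.01 and Sec61a1 -0.03. Without 1 array the ranges were -0.03 to 0.11 for Canx, -0.03 to 0.10 for Sec61a1, -0.10 to 0.03 for Ssr3, -0.16 to 0.03 for Derl3, -0.03 to 0.52 for Pdia3, -0.01 to 0.09 for Edem1, -0.10 to 0.01 for Derl2, -0.01 to 0.06 for Sec11c and -0.08 to 0.21 for Atf4. The causes were not tested. The fits that leave arrays out change both the number of arrays and which arrays are present. Signal over background cannot be given for these summarised values.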
